A study of Rattus norvegicus with 2 samples.

Results

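Absorptive enterocytes of a proximal type were described in the fetal rat colon at E19.5, from 1 single-cell library of the maternal obesity group and 1 of the control group. They were picked by measured values. Kept barcodes showed 500 or more genes, with mitochondrial transcripts making up no more than 20% of their UMIs (unique molecular identifiers, each tagging 1 captured transcript). It also needed UMIs of at least 4 of the 7 epithelial genes Epcam, Cldn7, Cldn4, Cldn3, Elf3, Vil1 and Lgals4, with at most 3 UMIs of Col1a1 and Col3a1 together. An enterocyte was then an epithelial cell with UMIs of at least 3 of the 5 genes Mep1a, Mep1b, Otc, Enpep and Apoc2. It had to lie under 10 UMIs per 10000 for Sftpd, Scgb1a1 and Aqp3 together, and under 5 per 10000 for Fcgbp, for the defensin genes and for Olfm4. Cells with at least 2 UMIs of each of 3 or more hormone-cell genes were left out. This found 940 enterocytes, 565 in the maternal obesity library and 375 in the control library, among 18617 barcodes, of which 14115 passed the gene and mitochondrial limits and 4855 were epithelial. The other 3915 epithelial cells serve as the comparison, and they were a different mix in each library. Cells high in Sftpd, Scgb1a1 and Aqp3 were 51 of 1032 in maternal obesity and 608 of 2883 in control. Fcgbp-high cells were 138 and 459 of them. Ratios to these cells, and library gaps within them, rest on those mixes.

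Both groups are colon of wild-type rat fetuses, of obese dams in the maternal obesity group and of control dams in the control group, and the diet, strain and number of fetuses behind each library were not known here. The maternal obesity library is numbered sample 2 and the control library sample 1. By the labels both were digested with collagenase and pancreatic enzymes and treated with red cell lysate before droplet capture, which primes on poly-A tails. With 1 library a group there is no replicate and no test between groups: a difference between the groups cannot be told apart from a difference between the libraries. Intervals are exact at 95% and cover counting error only.

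Enterocytes are the absorptive cells of the intestinal lining. Their apical brush border carries peptidases, phosphatases and disaccharidases, and transporters in its membrane take up amino acids, sugars, lipids, bile acids and metals. Around birth the rat gut also makes citrulline and arginine from glutamine, and the fetal colon of the rat is known to pass through a stage with villus-like folds and small-intestinal enzymes, which are lost as the adult colonic lining forms.

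The enterocytes were the more deeply sequenced part of the epithelium. Their median was 31489 UMIs a cell in maternal obesity and 28087 in control, against 17342 and 13289 UMIs in the other epithelial cells of these libraries. A rule that needs detected UMIs picks deeper cells more easily. The libraries held 120811946 and 103013814 UMIs in all. Haemoglobin genes took 0.777% of the enterocytes' UMIs in maternal obesity and 0.288% in control, against 2.99% and 1.46% in the other epithelial cells. The libraries shared 130 barcodes, none of which was an enterocyte in both.

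The 5 genes of the rule chose the cells, so their levels are a description. Mep1a and Mep1b encode the meprin subunits, metallopeptidases of the brush border. Mep1a was at 132 CPM (counts per 1000000 UMIs, both summed over the cell group) in the maternal obesity enterocytes and 111 CPM in the control enterocytes. Mep1b was at 66.1 and 59.3 CPM in these groups. Cells were picked in part by the meprin genes, so close levels of these in the libraries follow in part from the rule. Otc, the citrulline-forming ornithine carbamoyltransferase, was at 92.6 CPM in maternal obesity and 54.8 CPM in control. Apoc2, the cofactor of lipoprotein lipase, was at 285 and 189 CPM. Enpep, the aminopeptidase A of the brush border, was at 52.0 CPM in maternal obesity and 13.0 CPM in control, among cells that Enpep itself helped to pick. It was found in 39.8% of the maternal obesity enterocytes and 25.1% of the control enterocytes, whereas Mep1a was found in 95.4% and 93.1%.

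Mgst1, a microsomal glutathione transferase, was given as a marker of these cells and was not used to pick them. It was at 312 CPM in the enterocytes against 84.8 CPM in the other epithelial cells of the maternal obesity library, and at 215 against 33.8 CPM in the control library. The ratios were 3.68 (3.50 to 3.88) and 6.36 (5.97 to 6.78). With every cell thinned to 3000 UMIs it was seen in 52.9% of the enterocytes in maternal obesity and 44.5% in control. In collagen-positive stromal cells the thinned shares were 2.29% and 1.83%, at median depths of 9422 and 10116 UMIs before thinning. Its level also followed the number of rule genes in a cell: cells with 3, 4 and 5 of them held 214, 315 and 433 CPM in maternal obesity and 196, 218 and 268 CPM in control.

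The rule drew its line through a continuous range. Just inside it, 204 maternal obesity and 184 control cells had 3 of the 5 genes. Just outside it, 215 and 239 cells had 2. Mgst1 was at 125 CPM in the maternal obesity cells just outside and 86.8 CPM in the control cells just outside. Median depth was 23756 and 23685 UMIs just inside, against 21989 and 19856 UMIs just outside. Epithelial cells with none of the 5 genes numbered 321 in maternal obesity and 1133 in control.

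**Figure D1:**
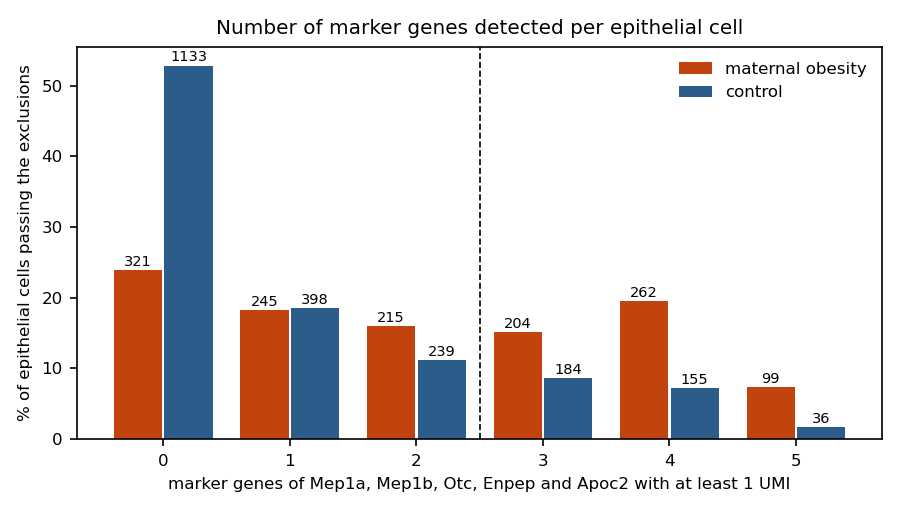
Number of the 5 rule genes detected in each epithelial cell that passed the exclusions, as a percentage of such cells in maternal obesity (left bars) and control (right bars), with cell numbers above the bars. Cells right of the dashed line are the enterocytes, and those with no rule gene number 321 in maternal obesity and 1133 in control.

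The exclusions removed few of the cells with at least 3 rule genes. In maternal obesity they took 45 of 610 and in control 22 of 397. The Fcgbp limit took 29 and 7 cells, the defensin limit 14 and 11.

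Enterocytes made up a larger share of the epithelium in the maternal obesity library. They were 565 of 1597 epithelial cells there, or 35.4% (33 to 37.8), and 375 of 3258 in control, or 11.5% (10.4 to 12.7), by exact Clopper-Pearson intervals. Of all kept barcodes they were 7.81% (7.20 to 8.45) in maternal obesity and 5.45% (4.93 to 6.01) in control, which lay closer together, while epithelial cells were 22.1% of the kept barcodes in maternal obesity and 47.4% in control. When each cell was thinned to 3000 UMIs before the rule was applied, 67 of 1317 epithelial cells met it in maternal obesity (5.09%, 3.96 to 6.42) and 28 of 2627 in control (1.07%, 0.709 to 1.54). Among cells with 15000 to 60000 UMIs the shares were 43.5% and 19.2%. The level of the share therefore depends on depth and on the rule, and its order between the libraries was the same in each of these settings. How far digestion of the tissue set these shares was not tested.

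Relative to the other epithelial cells, the enterocytes had higher levels of several genes of bile acid and cholesterol handling and chylomicron assembly, of both metallothioneins and of some nitrogen enzymes. Of 12611 genes with at least 20 UMIs in the epithelial cells of each library, 159 (1.26%) were at least 2-fold higher in the enterocytes of both libraries and 1389 (11%) at least 2-fold lower. In the maternal obesity library alone 1.66% of the genes were at least 2-fold higher and 13.4% lower, in the control library alone 2.56% and 16.7%. Ratios in these counts have 0.5 UMI added to each sum. All genes of the rule are left out: the 5 that picked the cells and those of the epithelial, collagen and exclusion limits. Genes that vary with them in the same cells are still not independent of the choice of cells. Between the cell groups there is no test.

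Metallothioneins, which bind zinc and copper, were among the genes farthest above the other epithelial cells. Mt1 was at 1023 CPM in the enterocytes against 338 CPM in the other epithelial cells of maternal obesity (3.03-fold, 2.95 to 3.11), and at 649 against 119 CPM in control (5.44-fold, 5.26 to 5.64). Mt2A was at 130 against 47.3 CPM in maternal obesity and at 81.1 against 14.3 CPM in control. The zinc carrier gene Slc39a5 was at 83.0 against 42.6 CPM and at 61.2 against 21.0 CPM. Mt1 had UMIs in 65.0% of the thinned enterocytes in maternal obesity and 62.7% in control, against 3.76% and 2.65% of the thinned stromal cells. Reads of near-identical metallothionein copies could be split between these genes.

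Oat, the mitochondrial ornithine aminotransferase, was at 653 CPM in the enterocytes against 259 CPM in the other epithelial cells of maternal obesity, and at 440 against 153 CPM in control. The carnosine-splitting dipeptidase gene Cndp2 was at 186 against 79.8 CPM in maternal obesity and 138 against 56.0 CPM in control. Fbp2, a fructose bisphosphatase of gluconeogenesis, was at 116 against 50.9 CPM and at 110 against 35.8 CPM. Sord, the enzyme that turns sorbitol into fructose, was at 151 against 72.8 CPM and at 205 against 76.8 CPM. Fbp2 and Sord thus stood higher in the enterocytes of both libraries, by 2.07-fold to 3.06-fold.

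Pdzk1, a scaffold that holds transporters at the brush border, was 2.67-fold higher in the enterocytes of maternal obesity (2.39 to 2.99) and 4.70-fold in control (4.20 to 5.26). Scarb1, a lipoprotein receptor that also binds this scaffold, was at 55.7 against 28.4 CPM and at 60.8 against 24.2 CPM. Amn, the membrane anchor of the vitamin B12 receptor, was at 179 against 91.5 CPM and at 206 against 62.7 CPM. Its receptor partner Cubn had 2 UMIs in the maternal obesity enterocytes and 0 in control. Further genes in the 20 that stood highest were Pecr, Prkg2, Sult1b1, Reep6, Tnnt2, Akr7a2, Grhpr and Phpt1. Over the 20 genes the ratio ranged from 1.95 to 3.68 in maternal obesity and from 1.98 to 6.36 in control, and it was larger in control for 19 of them. The part of the unlike mix of other epithelial cells in this was not tested.

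**Figure D2:**
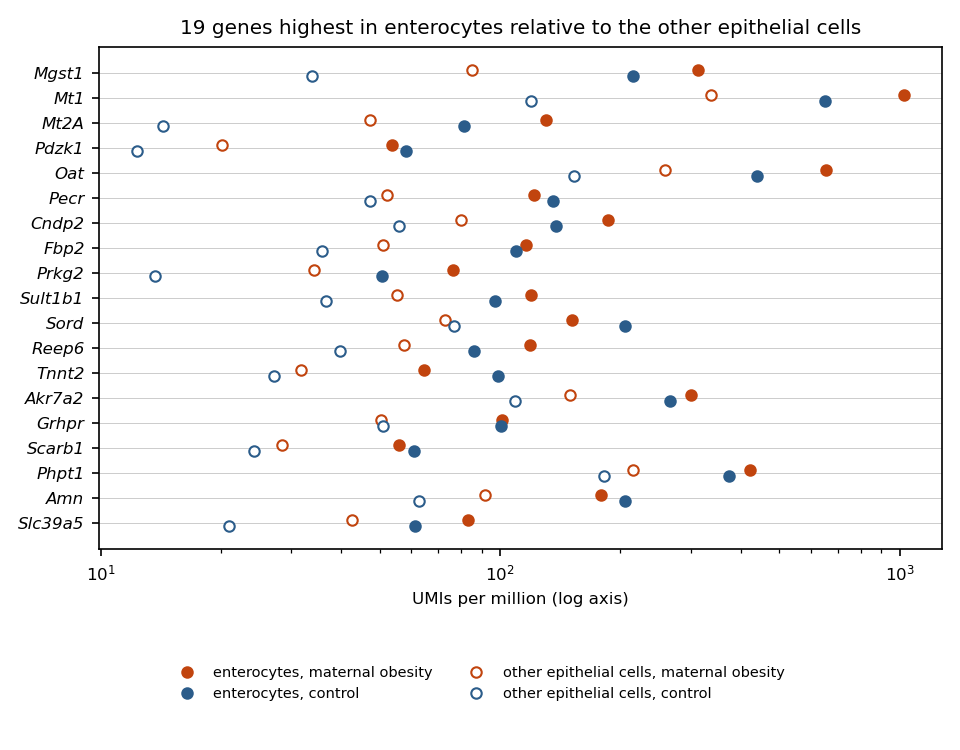
Levels of 19 of the 20 genes that stood highest in the enterocytes relative to the other epithelial cells, in CPM on a log axis, for the enterocytes (filled) and the other epithelial cells (open) of maternal obesity and control, 1 library each. Every filled point lies right of the open point of its library; Mt1 lies farthest right, at 1023 CPM in the maternal obesity enterocytes.

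At the other end stood genes of goblet, secretory and surface cells, along with Vim and Cd74, which are genes of mesenchymal and immune cells. Retnlb, a goblet cell cytokine, was at 5.93 CPM in the enterocytes against 163 CPM in the other epithelial cells of maternal obesity and at 2.92 against 247 CPM in control, and 70.2% of its enterocyte UMIs in maternal obesity came from 1 cell. Adh6 was at 10.6 against 122 CPM and 5.00 against 250 CPM. Spink1, a trypsin inhibitor, was at 25.5 against 270 CPM and at 46.1 against 542 CPM. Plet1, St6galnac6, Vim, Anxa1, Cd74, Atp2a3 and Fam3d completed the 10 lowest genes (for Cd74, 57.5% and 95.9% of the enterocyte UMIs lay in 1 cell), which were 6.35-fold to 27.4-fold lower in maternal obesity and 8.65-fold to 84.6-fold lower in control. The rule itself removed Fcgbp-high, defensin-high, Olfm4-high and hormone-rich cells, so lower levels of genes of those cells follow in part from the choice of cells. Of 18 measured goblet genes, 16 were at least 2-fold lower in both libraries and 0 higher, beside 11% and 1.26% of all genes. Of 11 measured enteroendocrine genes 9 were lower and 0 higher in both. Nts, on that list, was at 24.7 against 54.9 CPM in maternal obesity but at 143 against 37.0 CPM in control (3.87-fold higher, 3.62 to 4.14). Neurog3 was at 0.813 against 12.1 CPM and at 6.50 against 4.99 CPM, with 89.7% of its control enterocyte UMIs in 1 cell.

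Among the lists of absorptive function, cholesterol, bile acid and retinoid handling stood out by its count. Of its 13 measured members, 7 were at least 2-fold higher in the enterocytes of both libraries and 0 lower, beside 1.26% and 11% of all genes. The median log2 ratio was 1.08 in maternal obesity and 1.26 in control, against -0.06 and -0.13 over all 12611 genes. Slc10a2, the bile acid importer of the ileal brush border, was at 17.3 against 5.18 CPM in maternal obesity and at 13.6 against 2.22 CPM in control. Slc51a and Slc51b encode the paired basolateral exporter of bile acids. Slc51b was at 14.2 against 3.02 CPM and at 3.75 against 0.615 CPM, and Slc51a at 4.31 against 1.47 CPM and at 1.25 against 0.527 CPM. The bile acid receptor gene Nr1h4 was 1.58-fold and 1.88-fold higher, short of 2-fold. Fgf19, the hormone gene that this receptor drives in adult ileum, had no UMI in the enterocytes, which allows up to 0.143 CPM in maternal obesity and 0.25 CPM in control. The ileal bile acid binder Fabp6 had only 13 and 19 UMIs. Npc1l1, the cholesterol importer, was at 7.08 against 2.84 CPM and at 4.25 against 1.36 CPM, and Soat2, which esterifies cholesterol, was at 4.35 against 1.01 CPM and at 3.08 against 0.374 CPM. Isx, an intestinal homeobox factor that tunes vitamin A uptake, was 2.25-fold and 3.66-fold higher. Not all members did so: the cholesterol exporter gene Abca1 was at 1.15 against 1.69 CPM and at 1.25 against 2.66 CPM, and Cyp27a1 and Dhrs9 were 1.08-fold and 1.09-fold higher in maternal obesity.

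Genes that build chylomicrons, the lipoproteins that carry absorbed fat, were also higher. Of 16 measured members, 5 were at least 2-fold higher in both libraries and 1 lower, beside 1.26% and 11% of all genes. The median log2 ratio was 0.76 in maternal obesity and 0.76 in control. Mttp, which loads lipid onto apolipoprotein B, was at 28.0 against 9.98 CPM in maternal obesity and 12.1 against 2.99 CPM in control. Apoa4 was at 22.1 against 4.67 CPM and at 6.42 against 1.63 CPM. Apoc3 was at 8.42 against 1.65 CPM and 3.08 against 0.308 CPM. Apoa4 and Apoc3 were thus low in level but several-fold above the other epithelial cells, whereas Apoa1 was 1.90-fold and 1.99-fold higher. Dgat2, a triglyceride-forming enzyme, was 2.24-fold and 2.46-fold higher, and Cideb, which helps lipidate these particles, 2.60-fold and 3.21-fold. Apob itself was 1.31-fold and 1.77-fold higher. Apoe ran the other way, at 83.8 against 185 CPM and at 70.4 against 108 CPM. The lower member was Apoa5, with 6 and 0 UMIs in the enterocytes. Of 19 measured genes of fatty acid uptake and oxidation 1 passed 2-fold upward in both libraries, Fabp2, the intestinal fatty acid binder (2.78-fold and 3.24-fold). Fabp1, the other enterocyte fatty acid binder, had 19 and 10 UMIs.

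Some enzymes of the citrulline pathway were found along with Otc. Of 14 measured nitrogen enzymes outside the rule, 3 were at least 2-fold higher in both libraries, Oat, Nags and Cps1, and 0 lower. These counts stand beside 1.26% and 11% of all genes. The list's median log2 ratio was 0.10 in maternal obesity and -0.04 in control. Nags, which makes the activator of carbamoyl phosphate synthesis, was at 40.8 against 16.3 CPM in maternal obesity and 36.0 against 11.3 CPM in control. Cps1, the carbamoyl phosphate synthetase itself, was at 24 against 7.97 CPM in maternal obesity but at 1.33 against 0.132 CPM in control, where it rested on 16 UMIs. Ass1, which starts the conversion of citrulline to arginine, was at 329 against 268 CPM and 395 against 221 CPM. Asl, which completes that conversion, was at 14.2 against 14.2 CPM and 12 against 14.2 CPM. Glul, the glutamine synthetase, was at 218 against 361 CPM and 280 against 439 CPM. Aldh18a1, which leads from glutamate into the pathway, had 1 and 6 UMIs. Arg1 and Arg2, which break arginine down, had 11 and 10 UMIs in maternal obesity and 16 and 13 UMIs in control.

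Brush border genes were mixed. Alpi, the intestinal alkaline phosphatase, was at 48.5 against 10.9 CPM in maternal obesity and at 23.8 against 4.79 CPM in control (4.43-fold and 4.98-fold). Of 11 measured peptidases outside the rule, 1 was at least 2-fold higher and 2 lower, beside 1.26% and 11% of all genes. Naaladl1 was at 11.4 against 4.03 CPM and 6.67 against 3.01 CPM. Dpp4, the peptidase that inactivates incretins, was at 156 against 96.6 CPM and at 201 against 175 CPM. Anpep, the aminopeptidase N of the adult small intestine, was low, at 2.49 against 6.0 CPM and 0.917 against 1.49 CPM. Of 17 measured microvillus genes only Pdzk1 passed 2-fold upward, and Mpdz passed it downward. Vil1, the actin bundler villin and one of the epithelial genes of the rule, was at 271 against 211 CPM and 226 against 181 CPM.

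Several defining genes of the mature small-intestinal enterocyte were at or near 0. Lactase (Lct) had 3 UMIs in the maternal obesity enterocytes and 1 in control. The peptide transporter gene Slc15a1 had 4 and 2 UMIs, and the neutral amino acid transporter gene Slc6a19 had 0 in both. Enteropeptidase (Tmprss15) had 0 UMIs. Gata4, a jejunal identity factor, had 1 UMI in maternal obesity and 0 in control. Si, sucrase-isomaltase, which was looked at after its values were seen, was at 1.24 against 0.412 CPM in maternal obesity and 1.58 against 0.0879 CPM in control. Mgam, the maltase-glucoamylase, was higher than these, at 73.8 against 54.8 CPM and 62.8 against 46.4 CPM. Outside the rule, the label of a proximal-type absorptive cell thus finds Mgst1, bile acid carriers, chylomicron genes and Alpi above the other epithelial cells, and the near-absence of Lct, Slc15a1, Slc6a19 and Fabp6 goes against it. The proliferation gene Mki67 had UMIs in 37.7% of the thinned enterocytes in maternal obesity and 36.0% in control. In the thinned other epithelial cells these shares were 26.2% and 24.5%. The label therefore does not mean that the cells had stopped dividing. Of 11 measured distal colonocyte markers 1 was at least 2-fold higher in both libraries, Slc26a3, and 1 lower, Slc37a2. Over all genes the shares were 1.26% higher and 11% lower. Krt20, a keratin of surface colonocytes, was at 218 against 159 CPM in maternal obesity and 144 against 85.4 CPM in control.

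Carriers of sugars and amino acids showed few differences past 2-fold from the other epithelial cells, and ion and water genes were more often lower than higher. Of 10 measured sugar, nucleoside and vitamin carriers, 2 were at least 2-fold higher and 1 lower, beside 1.26% and 11% of all genes. Slc5a1, the sodium-glucose cotransporter, was at 45.5 against 26.2 CPM and 29.7 against 16.2 CPM. The vitamin C carrier gene Slc23a1 was at 6.41 against 2.38 CPM and at 4.83 against 1.49 CPM. Of 14 measured amino acid and peptide carriers 1 was higher and 3 lower. The higher gene was Slc7a9, the cystine and dibasic amino acid carrier, at 13.6 against 3.44 CPM and 2.08 against 0.483 CPM. Of 19 measured genes of chloride, sodium and water transport 1 was higher and 7 lower, beside 11% of all genes lower. Slc26a3, the chloride-bicarbonate exchanger of absorptive surface cells, was at 12.6 against 2.66 CPM and 4.08 against 0.703 CPM. Slc12a2, the chloride loader of secretory crypt cells, was at 63.3 against 166 CPM and 50.7 against 307 CPM. The epithelial sodium channel genes of adult distal colon, Scnn1b and Scnn1g, had 0 to 2 UMIs in the enterocytes of either library.

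**Figure D3:**
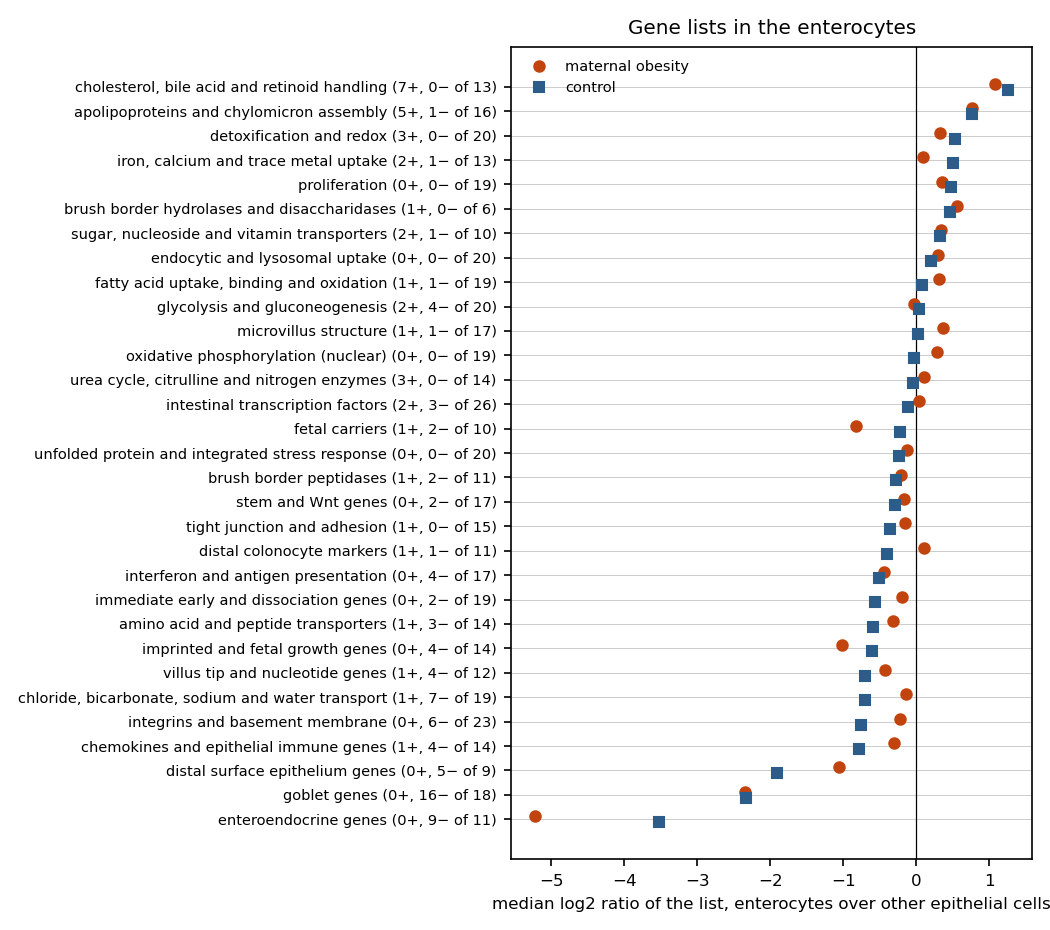
Median log2 ratio of enterocytes over other epithelial cells for each gene list, in maternal obesity (circles) and control (squares). Brackets give the members at least 2-fold higher (+) and lower (−) in both libraries, of those measured; the bile acid list lies farthest right and the enteroendocrine list farthest left.

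Transcription factor genes of the intestine were largely shared with the other epithelial cells. Of 26 measured factors 2 were at least 2-fold higher in both libraries, Isx and Gata5, and 3 lower, Klf4, Foxa2 and Foxa3. Of all genes measured 1.26% were higher and 11% lower, so the share of lower factors was close to that of all genes. Cdx2, the master factor of intestinal identity, was at 249 against 208 CPM in maternal obesity and 238 against 159 CPM in control. Hnf4g, an enterocyte nuclear receptor, was at 71.3 against 46.9 CPM and 82.5 against 27.6 CPM. Its relative Hnf4a was at 97.5 against 103 CPM and 73.0 against 98.8 CPM. Klf4, a factor of goblet and surface cells, was at 37.2 against 90.0 CPM and 39.6 against 195 CPM. Cdx2 and Hnf4g thus stood above the other epithelial cells in both libraries, and Klf4 below them.

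The promoter windows of the genes that stood higher in the enterocytes were read for the letters of intestinal factor elements, since HNF4 and CDX factors were expressed in these cells. Windows run from 250 bases before to 50 bases after the annotated start, in RefSeq's GRCr8 annotation, with 1 window a gene symbol, and 119 of the 159 genes had one. The letters CAAAGTCCA, the core of the element that HNF4 factors bind, stood on either strand in 5 of these 119 windows (4.20%), those of Alpi, Cps1, Pdzk1, Smlr1 and Trim31. They stood in 0.339% of the windows of all measured genes, in 0.205% of those of the genes at least 2-fold lower and in 0.375% of all 27457 windows. The shorter CAAAGTC, which is part of CAAAGTCCA, was in 11 windows (9.24%), among them those of Slc51a, Rbp2 and Cideb, against 3.50% of the windows of measured genes, 3.38% of those of the lower genes and 4.54% of all windows. GTTAAT, from the HNF1 element, was in 14.3% of the windows of the higher genes, against 4.42% of those of measured genes, 5.03% of those of the lower genes and 7.37% of all windows. TTTATNG, as in the element of CDX2, was in 15.1%, against 7.01%, 8.0% and 11.2% of these sets. AGATAA, as bound by the zinc finger factors of the Gata5 family, was in 15.1%, against 5.83%, 6.97% and 11.3%. These motifs were chosen with results of these data known, base composition was not matched, and a match of letters is a description of the window. The windows of Cps1, Alpi and Pdzk1 are shown because they hold the 9-letter form, and that of the rule gene Apoc2 because it holds the 7-letter form. Capitals mark CAAAGTC or, on the other strand, GACTTTG, and each window is written 5′ to 3′ in the direction of its gene.
Cps1, chr9:76063613-76063912 (plus strand): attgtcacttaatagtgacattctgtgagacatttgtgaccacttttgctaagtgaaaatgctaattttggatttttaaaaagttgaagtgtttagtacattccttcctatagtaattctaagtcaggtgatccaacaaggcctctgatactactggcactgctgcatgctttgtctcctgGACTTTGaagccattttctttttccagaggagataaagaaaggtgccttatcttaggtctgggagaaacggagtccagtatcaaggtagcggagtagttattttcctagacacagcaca
Alpi, chr9:95224731-95225030 (minus strand): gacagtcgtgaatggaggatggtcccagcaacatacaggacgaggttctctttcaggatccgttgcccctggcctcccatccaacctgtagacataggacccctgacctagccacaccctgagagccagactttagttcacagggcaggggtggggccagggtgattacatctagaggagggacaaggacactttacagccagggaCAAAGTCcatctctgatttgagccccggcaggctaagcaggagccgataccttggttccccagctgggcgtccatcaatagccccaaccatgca
Pdzk1, chr2:187064745-187065044 (plus strand): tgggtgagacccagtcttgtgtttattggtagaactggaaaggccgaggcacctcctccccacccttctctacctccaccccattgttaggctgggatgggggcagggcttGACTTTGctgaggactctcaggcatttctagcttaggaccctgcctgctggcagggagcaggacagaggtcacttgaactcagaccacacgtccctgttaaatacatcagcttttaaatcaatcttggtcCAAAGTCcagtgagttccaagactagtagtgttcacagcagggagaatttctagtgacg
Apoc2, chr1:88462316-88462615 (minus strand): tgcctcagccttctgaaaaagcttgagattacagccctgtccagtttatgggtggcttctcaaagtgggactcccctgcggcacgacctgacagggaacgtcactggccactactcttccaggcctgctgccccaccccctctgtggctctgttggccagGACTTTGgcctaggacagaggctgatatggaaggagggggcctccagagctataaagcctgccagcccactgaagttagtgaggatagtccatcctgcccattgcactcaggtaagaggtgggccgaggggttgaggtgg
The letters begin 69 bases before the start in Cps1, 44 in Alpi, 139 and 9 in Pdzk1, and 90 in Apoc2.

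Within the enterocytes, the maternal obesity library was higher than the control library for more genes than it was lower. Of 11774 genes with at least 20 UMIs over both, 1537 (13.1%) were at least 1.5-fold higher in maternal obesity and 456 (3.87%) at least 1.5-fold lower, with a median log2 ratio of 0.10 over all genes. With each library scaled by the median ratio instead of by its total, the counts were 1183 higher and 619 lower, so that the share of higher genes among those past 1.5-fold was 65.6% in place of 77.1%. The interval bound nearest 1 lay past 1.5-fold for 385 genes upward (3.27%) and 116 downward (0.985%). In the other epithelial cells 1819 of 13704 genes (13.3%) were at least 1.5-fold higher and 1250 (9.12%) lower. The enterocyte and other epithelial comparisons come from the same libraries, so values of both are given side by side for most of the genes named here.

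Akr1b8, an aldo-keto reductase that clears aldehydes, had the ratio whose interval lay farthest above 1. It held 2713 UMIs in the maternal obesity enterocytes and 65 in the control enterocytes, or 130 and 5.42 CPM, a ratio of 24 (18.7 to 31.1). Its UMIs were found in 78.6% and 11.2% of the cells. In the other epithelial cells it was at 160 and 7.16 CPM. The gap was thus of like size outside the enterocytes, where the level of Akr1b8 was somewhat higher in both libraries. Paralogs of this family are close in sequence, so reads could be split between them.

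A nitrogen enzyme, an amino acid carrier, a transcription factor and a chemokine were among the 12 genes that stood farthest above control. Cps1 had 501 UMIs in maternal obesity and 16 in control, 24 and 1.33 CPM, a ratio of 18.0 (11 to 31.7), and 7.97 and 0.132 CPM in the other epithelial cells. Slc7a9 had 285 and 25 UMIs, 13.6 and 2.08 CPM (6.54-fold, 4.34 to 10.3), and 3.44 and 0.483 CPM in the other epithelial cells. Gata5, a factor of gut epithelium, had 120 and 10 UMIs, 5.74 and 0.833 CPM (6.89-fold, 3.62 to 14.7), and 2.47 and 0.308 CPM in the other epithelial cells. Ccl25, the chemokine by which small-intestinal epithelium attracts lymphocytes, had 585 and 41 UMIs, 28.0 and 3.42 CPM (8.19-fold, 5.96 to 11.5), and 4.08 and 0.440 CPM in the other epithelial cells. Ccl25 was both 6.87-fold and 7.77-fold higher in the enterocytes than in the other epithelial cells and higher in maternal obesity.

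The remaining genes of the upper 12 were of several kinds. Hopx, a homeodomain-only protein of stem and differentiated cells, was at 81.7 CPM in maternal obesity and 18.3 CPM in control (4.47-fold, 3.88 to 5.17), against 74.8 and 43.2 CPM in the other epithelial cells. Ptprh, a receptor phosphatase of the brush border, was at 10.8 and 1.08 CPM, with 4.49 and 1.19 CPM in the other epithelial cells. Nlrp6, an epithelial sensor protein, was at 4.59 and 0.583 CPM, with 2.56 and 1.12 CPM outside the enterocytes. Gfra2, the neurturin receptor, was at 6.46 and 0.583 CPM, with 6.09 and 0.483 CPM outside them. Rtp4, an interferon-inducible gene, was at 4.69 and 0.417 CPM, with 5.45 and 0.242 CPM outside them. Reg4 had 104 and 4 UMIs and was lower in the enterocytes than in the other epithelial cells, at 4.97 and 0.333 CPM against 33.4 and 1.82 CPM. Hes5 rested on 125 UMIs in 1.59% of the maternal obesity enterocytes, 25.6% of them in 1 cell, and on 2 in control, a ratio of 35.9 (9.72 to 299).

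Genes lower in maternal obesity were led by Map7d2, a microtubule-associated protein, with 3 UMIs in the maternal obesity enterocytes and 290 in the control enterocytes. It was at 0.144 and 24.2 CPM, a ratio of 0.00594 (0.00122 to 0.0175), and at 0.275 and 8.59 CPM in the other epithelial cells. Nts, the gut peptide neurotensin, was at 24.7 CPM in maternal obesity and 143 CPM in control, 5.79-fold lower (5.25 to 6.4), and was found in 25.7% and 60.5% of the cells. After thinning it was in 6.96% and 23.7% of the enterocytes, against 1.55% and 1.63% of the stromal cells. Over all the other epithelial cells Nts ran the other way, at 54.9 and 37.0 CPM, but 895 of those 1198 UMIs in maternal obesity came from the 24 enteroendocrine cells, where it was at 1205 CPM, against 141 CPM in the enteroendocrine cells of control. In the marker-low epithelial cells, which passed the exclusions but had fewer than 3 rule genes, Nts was at 16.0 and 42.4 CPM, lower in maternal obesity as in the enterocytes. Kcnj13, an apical potassium channel, was at 4.83 and 14.5 CPM in the enterocytes and at 2.47 and 2.40 CPM in the other epithelial cells. Lrp2, the endocytic receptor megalin, was at 2.06 and 11.2 CPM, and at 4.21 and 5.96 CPM in the other epithelial cells. The marker-low cells held Kcnj13 at 2.75 and 3.4 CPM and Lrp2 at 5.31 and 8.03 CPM. The difference between these gaps has no test with 1 library a group.

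Surface and mesothelium-type genes were also in the lower 12. Msln, the mesothelin glycoprotein, was at 5.55 CPM in maternal obesity and 42.7 CPM in control (7.69-fold lower, 6.28 to 9.49), Vtcn1 at 0.383 and 8.08 CPM, and Anxa1 at 8.90 and 27.5 CPM. In the other epithelial cells Msln was at 13.6 and 46.8 CPM, Vtcn1 at 2.47 and 23.4 CPM, and Anxa1 at 70.3 and 238 CPM. Rassf9 was at 4.64 and 17.4 CPM in the enterocytes and 11 and 36.9 CPM in the other epithelial cells. Gsto2 was at 2.06 and 8.42 CPM, and at 2.24 and 4.44 CPM in the other epithelial cells. Akr1c13 was at 7.46 and 24.8 CPM and Hmgb2l1 at 5.55 and 16.7 CPM, with 5.68 and 16.1 CPM and 5.22 and 12.5 CPM in the other epithelial cells, and both belong to families with close copies. The small nuclear RNA 7SK, which is not polyadenylated, was at 28.2 and 81.5 CPM, with 51.5 and 144 CPM in the other epithelial cells.

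**Figure D4:**
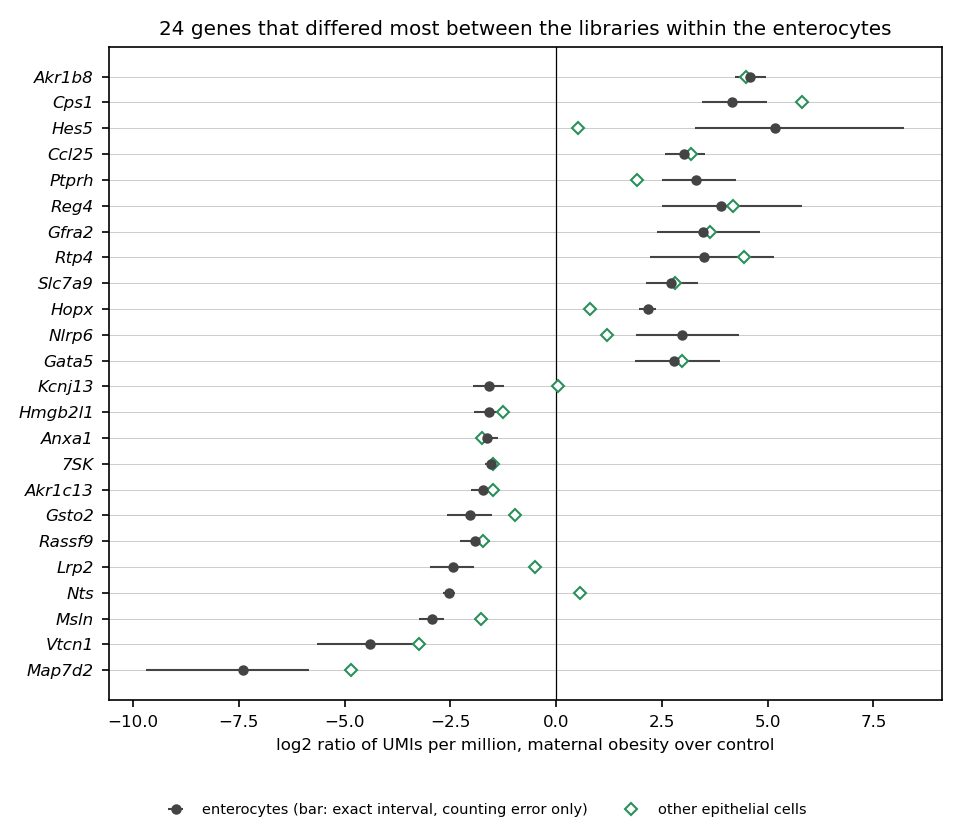
Log2 ratio of maternal obesity over control for the 12 genes that stood farthest above and the 12 farthest below control within the enterocytes (dots, with exact intervals that cover counting error), and for the same genes in the other epithelial cells (diamonds). Nts lies left of 0 in the enterocytes and right of 0 in the other epithelial cells, where 24 enteroendocrine cells held most of its maternal obesity UMIs; Kcnj13 lies near 0 in the other epithelial cells.

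By lists, chylomicron and bile acid genes leaned towards the maternal obesity library. Genes of fatty acid uptake, binding and oxidation did so less, with 2 of 21 members at least 1.5-fold higher, Acsl1 and Cpt1a, and 1 lower (median 0.19). In the chylomicron list 4 of 15 measured members were at least 1.5-fold higher and 0 lower, against 13.1% and 3.87% of all genes, with a median log2 ratio of 0.45 in the enterocytes and 0.61 in the other epithelial cells. Apoa4 was at 22.1 CPM in maternal obesity and 6.42 CPM in control (3.44-fold, 2.69 to 4.43), Apoc3 was 2.73-fold higher (1.91 to 4.00) and Mttp 2.32-fold (1.93 to 2.80). In the bile acid list 4 of 13 were higher and 0 lower (median 0.34, and 0.82 in the other epithelial cells). Slc51b was 3.79-fold higher (2.76 to 5.31) and Slc51a 3.44-fold (1.98 to 6.41), whereas the importer Slc10a2 was at 17.3 and 13.6 CPM (1.27-fold, 1.05 to 1.54) and Nr1h4 at 38.5 and 38.5 CPM. Exporter and importer of bile acids thus had unlike ratios between the libraries.

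Brush border peptidases had 4 of 11 members at least 1.5-fold higher and 0 lower, beside 13.1% and 3.87% of all genes. Their median was 0.54, and 0.12 in the other epithelial cells. Among the higher members were Xpnpep2 with 31 and 5 UMIs and Cpm at 50.5 and 32.1 CPM. Dpp4 went the other way, at 156 and 201 CPM. Alpi was at 48.5 CPM in maternal obesity and 23.8 CPM in control (2.03-fold, 1.78 to 2.33). Of 17 ion and water genes 5 were higher and 1 lower. Slc26a3 was 3.09-fold higher (2.27 to 4.29), and the water channel gene Aqp8 was at 35.5 and 14.9 CPM (2.38-fold, 2.02 to 2.82). Car1, a carbonic anhydrase of colonocytes, had 96 UMIs in maternal obesity and 0 in control, at least 18.4-fold higher when 3 UMIs are allowed in the control cells. Guca2b, the uroguanylin gene, was the lower one, at 15.6 and 24.2 CPM. Of 10 sugar, nucleoside and vitamin carriers 3 were higher and 0 lower, with the nucleoside carrier gene Slc28a2 at 33.9 and 8.17 CPM (4.15-fold, 3.36 to 5.18) and Slc5a1 at 45.5 and 29.7 CPM.

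Other lists were split or close to all genes, of which 13.1% were at least 1.5-fold higher and 3.87% lower. Nitrogen enzymes had 2 of 14 members higher and 2 lower with a median of 0.05. Endocytic and lysosomal genes had 2 of 20 higher, with Dab2, an endocytic adaptor, at 39.8 and 15.4 CPM, and 1 lower, Lrp2. Of 26 transcription factors 5 were higher and 2 lower (median 0.26). Cdx1 was at 53.7 CPM in maternal obesity and 27.8 CPM in control, Foxa3 at 35.6 and 61.3 CPM, and Cdx2 at 249 and 238 CPM. Detoxification genes had 4 of 19 higher and 1 lower: the dioxin-inducible Cyp1a1, with 16 UMIs in maternal obesity and 69 in control. Both metallothionein genes were higher, Mt1 1.58-fold (1.54 to 1.62) and Mt2A 1.60-fold (1.49 to 1.73). Goblet genes in the enterocytes had 2 of 18 higher and 7 lower with a median of -0.46, which became 0.26 when the 2 sub-groups led by Ttr and by Spink1 were left out.

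The enterocytes were not uniform. Clustering the 940 cells with no adjustment between libraries gave 7 sub-groups, which are called by number and described by their leading genes. A sub-group held mostly by 1 library may be that library. Sub-group 1 (157 cells of maternal obesity and 3 of control) was led by the replication histone genes H2ac20 and H4f3 and by Hopx. Sub-group 2 (59 and 70 cells) was led by Hbe1 and Akr1c14, and sub-group 3 (148 and 37) by haemoglobin genes and Cd74. Hbe1 was at 481 CPM in sub-group 2 and at 615 CPM in sub-group 3. Over all the maternal obesity enterocytes, 62.1% of the Hbe1 UMIs lay in 1 cell. Sub-group 4 (90 and 34) was led by Gprc5a, Trib3 and Fer1l6, and sub-group 5 (17 and 134) by Nts and Tiparp. Sub-group 6 (61 and 33) was led by Ttr, Postn, Tdh, Apoe, Shh and Afp, among them the fetal proteins transthyretin and alpha-fetoprotein. Sub-group 7 (33 and 64) was led by Spink1, Spdef, Atoh1 and Tff3, which are goblet lineage genes. The cells of these last groups, 94 in sub-group 6 and 97 in sub-group 7, met every limit of the rule. The goblet lineage leaders of sub-group 7 go against the enterocyte label. Its median depth was the highest of the sub-groups, 54577 UMIs in maternal obesity and 43725 in control, and the rule picks deeper cells more easily.

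Absorptive genes were spread over the sub-groups, and Mgst1 was lowest in sub-group 6. There Mgst1 was at 42.6 CPM in maternal obesity and 26.3 CPM in control, against 250 to 429 CPM and 156 to 340 CPM in the other sub-groups. In sub-group 6 Mgst1 thus lay below its level in the other epithelial cells of each library. For the cells of sub-group 6 this goes against the enterocyte label. Slc10a2 was at 5.93 and 4.70 CPM in sub-group 6. Alpi reached 83.4 CPM in maternal obesity in sub-group 3 and 40.1 CPM in control in sub-group 4, and was at 16.4 and 14.1 CPM in sub-group 6. Apoa4 was at 47.3 CPM in the maternal obesity cells of sub-group 3 and at 3.70 CPM in its control cells, where it rested on 4 UMIs. In the other sub-groups Apoa4 was at 20.8 and 16.2 CPM (sub-group 1, 1 control UMI), 11.1 and 10.2 CPM (2), 19.3 and 12.4 CPM (4), 7.62 and 5.08 CPM (5, 3 maternal obesity UMIs), 5.58 and 6.57 CPM (6) and 6.39 and 4.93 CPM (7). Akr1b8 was higher in maternal obesity in every sub-group, at 77.7 to 326 CPM against 0 to 17.8 CPM. Nts was lower in maternal obesity in sub-groups 2 to 5 and 7, for example at 71.7 and 190 CPM in sub-group 4. Cps1 in maternal obesity was at 47.1 CPM in sub-group 1 and 25.6 CPM in sub-group 3, and at 11.7 CPM or less elsewhere. Of the 7 sub-groups, sub-group 3 thus had the largest Apoa4 ratio, the Cps1 levels of maternal obesity were highest in sub-groups 1 and 3, and the Akr1b8 gap was found in all 7.

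Markers of other cell types were low in the enterocytes but not absent. The 10 fibroblast markers summed to 78.0 CPM in maternal obesity and 88.4 CPM in control, most of it Fbln1 at 49.0 and 57.5 CPM, and Col1a1 was at 1.53 and 0.750 CPM. The 9 smooth muscle markers summed to 40.3 and 20.4 CPM, and the 11 macrophage and lymphoid markers to 28.7 and 8.25 CPM, with Lyz2 at 13.3 and 0.583 CPM (74.4% and 85.7% of it in 1 cell) and Cd3e at 0 in both. Of the 8 endothelial and mesothelial markers Wt1, Upk3b and Lrrn4 were at 0, and Msln made up most of the sum of 6.03 and 43.9 CPM. All 9 measured members of the erythroid list, haemoglobin genes and the haem synthesis gene Alas2, were at least 1.5-fold higher in maternal obesity. The list summed to 7776 CPM there and 2883 CPM in control. Hbz, Hbe1 and Hbg1 had 89.4%, 62.1% and 49.5% of their maternal obesity UMIs in 1 cell. In maternal obesity 99.8% of the enterocytes had a haemoglobin UMI, in control 69.9%. The part of free RNA or of attached cells in the library differences was not tested. Without cells of 1% or more haemoglobin UMIs the counts past 1.5-fold were 1533 higher and 451 lower.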

How the data were processed

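Single-cell RNA was captured on the 10x Genomics droplet platform from 1 maternal obesity and 1 control library. The deposited matrices hold UMI counts per gene and barcode, filtered to cells by the authors. Counting used cellranger 6.1.2, per the file headers, whereas version 2.1.1 of Cell Ranger stands in the submitters' processing notes. Which genome build the reads were aligned to was not known here. No value was normalized before deposit.

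From the counts, UMIs were summed over the cells of a group, so deeper cells weigh more, and divided by the group's total to give CPM (counts per 1000000). Summed levels were compared as ratios with exact conditional binomial intervals at 95%, and shares with exact Clopper-Pearson intervals. Neither treats cells as replicates, and no test between groups was made. PCR duplicates are collapsed by UMI, but UMIs of 1 cell are not independent, so intervals cover counting error only. A count of 0 allows up to 3 UMIs. Genes needed at least 20 UMIs over the groups compared. Thinning drew 3000 UMIs a cell, which left out 752 maternal obesity and 1035 control cells that were shallower, 5 and 0 of them enterocytes.

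Doublets were scored with Scrublet in scanpy 1.11.5. It called 130 cells in maternal obesity (1.80%) but 3 in control (0.0436%), where it did not work, so none were removed. Of the enterocytes 9 in maternal obesity and 0 in control were called. Sub-groups are Leiden clusters at resolution 0.5 from 2000 variable genes and 20 components. The calculations were tested on simulated counts. The 38 gene lists name 649 symbols, of which 29 were not matched and are not analysed here. Muc2 has no symbol in the files, so the goblet limit rests on Fcgbp.

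The cells' rule, the lists and the motifs were chosen with earlier results of these data known. The genes named are the markers; the 20 higher and 10 lower genes with the largest smaller ratio over both libraries at 50 CPM or more; the 12 genes each way whose interval bound lay farthest from 1, at 100 UMIs or more and at most 33% of UMIs in 1 cell; sub-group leaders; and list members of high level or with at least 20 UMIs in both libraries. Mitochondrial, ribosomal protein, haemoglobin, RT1 and sex-linked genes and unnamed identifiers were left out of the rankings. A few genes that these rules name are not reported here. Other list members, the genes at or near 0 and Si were named after their values were seen.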

Additional observations from a re-analysis of the deposited data

Results flagged for a closer look

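Among 201 named genes, 5 had ratios of maternal obesity over control that ran opposite ways in the enterocytes and in the other epithelial cells, with both intervals past 1.2-fold. Retnlb did so only through 1 cell. With 1 library a group, the difference between these ratios was not tested, nor was the part of the unlike mix of other epithelial cells in each library.

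Nts, neurotensin, had a ratio of 0.173 (0.156 to 0.191) in the enterocytes and 1.48 (1.37 to 1.60) over all the other epithelial cells, where 895 of its 1198 UMIs in maternal obesity came from 24 enteroendocrine cells. In the marker-low epithelial cells it was at 16.0 CPM in maternal obesity and 42.4 CPM in control, so it ran there as in the enterocytes. Tmprss2, a membrane serine protease, was at 66.6 CPM in maternal obesity and 45.7 CPM in control enterocytes, a ratio of 1.46 (1.32 to 1.61), against 113 and 158 CPM in the other epithelial cells and 105 and 108 CPM in the marker-low ones. Itgb4, the integrin subunit of hemidesmosomes, was at 44.8 and 30.8 CPM in the enterocytes, a ratio of 1.46 (1.29 to 1.65), against 43.2 and 62.5 CPM in the other epithelial cells and 35.4 and 42.8 CPM in the marker-low ones.

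Adh6, an alcohol dehydrogenase, had a ratio of 2.11 (1.58 to 2.86) in the enterocytes and 0.487 (0.467 to 0.508) in the other epithelial cells, with 56.4 and 113 CPM in the marker-low ones. Retnlb had ratios of 2.03 (1.39 to 3.05) and 0.660 (0.635 to 0.685), with 147 and 242 CPM in the marker-low cells, and 70.2% of its UMIs in the maternal obesity enterocytes were in 1 cell. The direction of its ratio in the enterocytes rests on that cell, which the interval does not cover.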

How the results depend on the processing

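No paired analysis was possible because the groups share no replicate number, and no library could be left out because each group has 1. The limit on low counts moved all 4 gene counts. At 100 UMIs or more, 93 genes were at least 2-fold higher and 643 lower in the enterocytes, and 892 were 1.5-fold higher and 216 lower in maternal obesity. At 1 UMI or more these were 309, 2373, 3673 and 1816. Thinning the enterocytes to 3000 UMIs gave 1010 higher genes in maternal obesity. In all other settings the counts stayed within 1.5 times. The share of enterocytes among epithelial cells, in maternal obesity and control, was 5.09% and 1.07% after thinning to 3000 UMIs, 25.3% and 6.98% after thinning to 10000, 43.5% and 19.2% at 15000 to 60000 UMIs, 48.8% and 18.8% with at least 2 rule genes, and 22.6% and 5.86% with at least 4. It was 7.81% and 5.45% of all kept barcodes, and 12.7% in control with a 10% mitochondrial limit. A Leiden resolution of 1.0 gave 14 sub-groups. The 24 genes that stood farthest from 1 between the libraries stayed past 1.5-fold in the same direction in 14 settings. Of the 30 genes set against the other epithelial cells, 7 came under 2-fold in some setting, the lowest at 0.79 on the log2 scale, with the direction kept. Of 530 list medians 506 stayed within the interval of the reported median or within 0.1 of it; the interval is wide for short lists: the enteroendocrine median over 7 genes was 0.05 as reported and -2.66 after thinning to 3000 UMIs. The other 24 were of 8 lists. The goblet median of -0.46 was -1.15 at 15000 to 60000 UMIs and 0.26 without the sub-groups led by Ttr and Spink1. The cause was not tested. The settings with thinning to 10000 UMIs, 15000 to 60000 UMIs, the Muc2 synonym, the left-out sub-groups and the haemoglobin limit were chosen after seeing the data. Counts near the limit of 3 UMIs limit the rarer carriers and enzymes.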

Other observations

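Glycolysis genes leaned to the control library in the enterocytes. The median log2 ratio of 19 measured members was -0.31, against 0.10 over all genes and -0.08 for the same list in the other epithelial cells, although 0 members were 1.5-fold lower and 1, Hk1 (21 and 6 UMIs), was higher. Aldoa was at 1734 CPM in maternal obesity and 2377 CPM in control, and Ldha at 1622 and 2077 CPM. Proliferation genes stood somewhat above the other epithelial cells, with 0 of 19 members past 2-fold, beside 1.26% of all genes higher and 11% lower. Their median log2 ratio was 0.36 in maternal obesity and 0.48 in control, against -0.06 and -0.13 over all genes. Mki67 was at 257 against 211 CPM in maternal obesity (1.22-fold) and at 210 against 170 CPM in control (1.24-fold).

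Interferon and antigen presentation genes had 6 of 16 members at least 1.5-fold higher in maternal obesity and 1 lower, beside 13.1% and 3.87% of all genes. Among the higher members, Cd74 had 57.5% and 95.9% of its UMIs in 1 cell, and 5 of 8 measured macrophage and lymphoid markers were also higher (summed over the list, 28.7 CPM in maternal obesity and 8.25 CPM in control); their part was not tested. The list also held B2m at 52.9 CPM in maternal obesity and 24.1 CPM in control (2.19-fold, 1.93 to 2.51). Cldn2, a claudin that forms cation pores, was at 20.7 against 7.42 CPM in maternal obesity and 8.42 against 1.56 CPM in control, enterocytes against other epithelial cells.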
